A study of Homo sapiens with 3 samples.

Results

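K562 is a human chronic myeloid leukaemia line that carries the Philadelphia translocation, which joins BCR on 22q11 to ABL1 on 9q34. K562 holds this fusion in many copies together with neighbouring stretches of both chromosomes, an arrangement known as the BCR-ABL1 amplicon. The 32 genes described here are neighbours of BCR and ABL1 on that amplicon: 26 lie on 22q11 and 6 on 9q34, out of 20381 genes targeted in the screen. They were chosen by name from their position, with BCR and ABL1 themselves left out. Cas9 cuts every copy of its target, and it is known from other work that many cuts in 1 cell slow growth whatever the function of the gene that is cut. Genes of amplified regions can for this reason look essential in a knockout screen although their products are dispensable or not made at all. The files hold sgRNA counts only, so copy number was not measured here and its part in any result was not tested.

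The study asked which genes, once disrupted, alter MHC class I (MHC-I) on K562 cells. Cells expressing Cas9 received the Bassik genome-wide knockout library by lentivirus (multiplicity of infection 0.3), and puromycin (1 μg/mL, 72 h, from 48 h after infection) removed cells without an sgRNA. Interferon-γ (IFN-γ) was given 24 h ahead of each sort, and each screen was sorted in 2 rounds. In the high screen (1 ng/mL IFN-γ, rounds on days 18 and 25) cells with high MHC-I were collected, in the low screen (25 ng/mL IFN-γ, rounds on days 7 and 15) cells with low MHC-I. Of these, 3 libraries were used here, 1 per group. The HLA-B high sorted library came from cells of the high screen collected with an HLA-B antibody. The other two came from unsorted pools and are called the high-screen control and the low-screen control after their screens. All 3 share the line, Cas9, the sgRNA library and the puromycin selection. The labels do not give the days on which the unsorted pools were harvested, and the library before infection was not analysed here. With no replicate library no difference between libraries could be tested, and the intervals below count sgRNAs within a library as if they were independent, although sgRNAs against 1 gene share a target.

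The 32 genes were represented by 298 sgRNAs: 19 genes had 10, 5 had 9, 7 had 8 and UBE2L3 had 7. These are the sgRNAs listed in at least 1 of the 3 libraries, so any that was absent from all 3 is not counted. The high-screen control held 22562241 matched reads, the low-screen control 98426251 and the HLA-B high sorted library 34266318. Counts were scaled to counts per 1000000 matched reads (CPM), in which 3 reads, the most that a count of 0 allows, equal 0.133, 0.0305 and 0.0875 CPM in the 3 libraries in this order. The level of an sgRNA is log2(CPM + 0.1) minus the median of the 6645 safe-targeting sgRNAs of the same library, which cut at sites without known function and therefore carry the cost of an ordinary cut. A level of 0 is that of a typical safe-targeting sgRNA and a level of -1 is about 2-fold lower; a gene's level is the median over its sgRNAs, and a gene at or below -1 was called low. Because of the pseudocount of 0.1 CPM, these differences understate the change of rare sgRNAs. The safe-targeting median stood at 3.86 CPM (87 reads) in the high-screen control and 4.20 CPM (413 reads) in the low-screen control. The 4639 non-targeting sgRNAs, designed to cut nowhere, stood higher, at 6.83 and 6.37 CPM.

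sgRNAs against the amplicon genes were scarce in both unsorted pools. In the high-screen control 13 of the 32 genes were called low, against 10.9% of all genes tested. In the low-screen control 16 of 32 were called low, against 11.5% of all genes, and 10 were low in both pools, against 5.36%. The 32 genes had median levels of -0.88 (high screen) and -0.99 (low screen), while all 20381 genes had medians of -0.02 and -0.10. None of the 32 was called high in either pool, while 2.77% and 1.22% of all genes were. The 10 genes low in both pools were PI4KA, SNAP29, UBE2L3, PPIL2, PPM1F, TOP3B, VPREB1, ZNF280B and RTDR1 on 22q11 and AIF1L on 9q34.

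**Figure D1:**
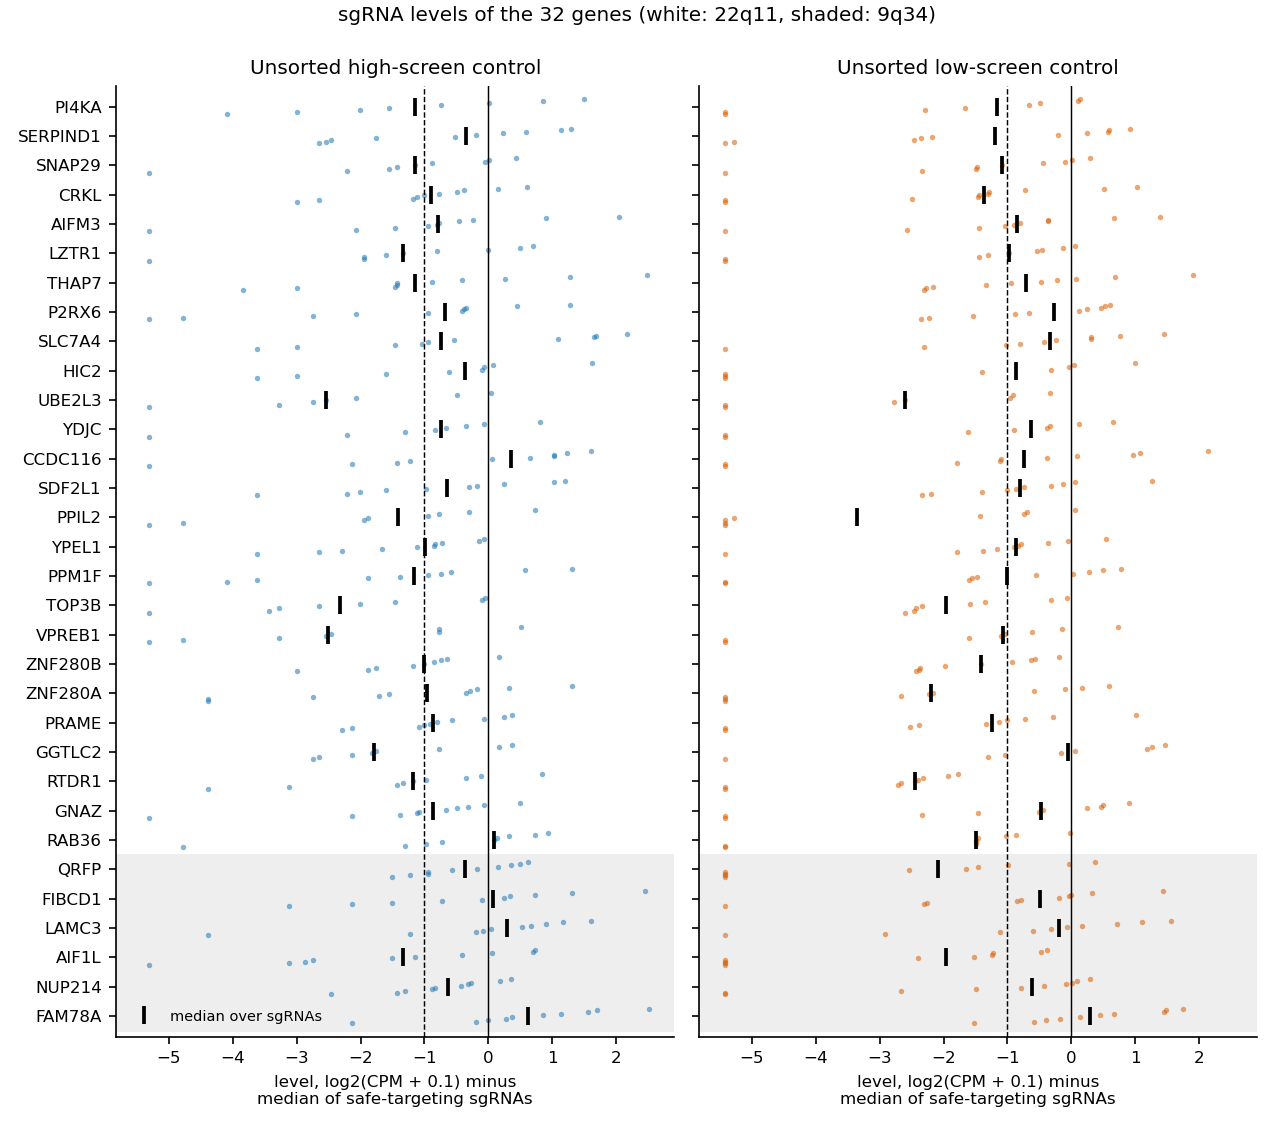
Level of every sgRNA (points, log2 scale, 0 = median of safe-targeting sgRNAs) against the 32 genes in order along 22q11 (white) and 9q34 (shaded), in the high-screen control (left) and the low-screen control (right). Black bars are gene medians, the dashed line is the limit for a low call and the leftmost points of a panel are sgRNAs without a read; 13 gene medians lie at or left of the dashed line on the left and 16 on the right.

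Single sgRNAs gave the same picture. In the high-screen control 131 of 298 member sgRNAs (44%, exact binomial 95% interval 38.2 to 49.8) were at or below -1, against 25.1% (24.1 to 26.2) of safe-targeting sgRNAs and 27.1% of all gene-targeting sgRNAs. In the low-screen control it was 151 of 298 (50.7%, 44.8 to 56.5), against 23.9% (22.9 to 25.0) of safe-targeting and 27.4% of all gene-targeting sgRNAs. sgRNAs against olfactory receptor genes, which K562 does not need, took an intermediate place with 37.3% (35.8 to 38.9) and 37.2% (35.6 to 38.7). sgRNAs against proteasome subunits, which every dividing cell needs, stood at 47.3% (42.1 to 52.7) and 49.6% (44.3 to 54.9). In the high-screen control the member interval overlapped that of the proteasome widely and that of the olfactory receptors only at its edge. The olfactory receptor share of 37.3% lay below the member interval there. In the low-screen control the member interval overlapped that of the proteasome alone. The spread remained wide: 28 and 18 member sgRNAs were at or above 1 in the high-screen and the low-screen control.

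**Figure D2:**
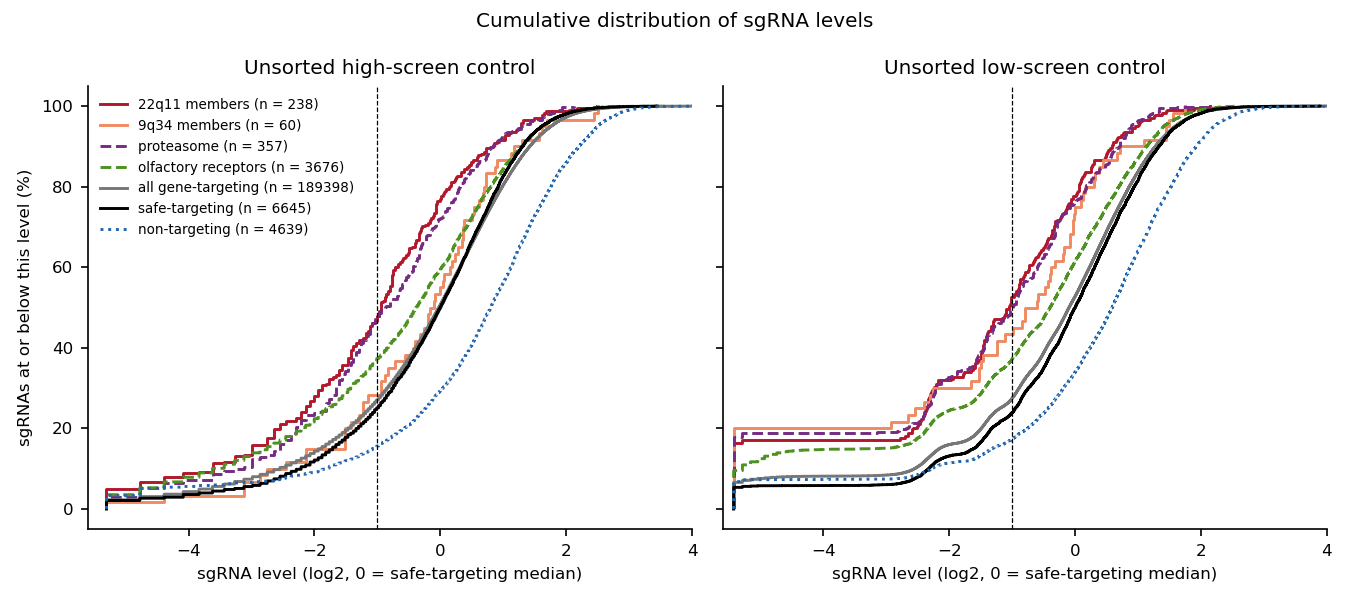
Share of sgRNAs (%) at or below each level (log2, 0 = median of safe-targeting sgRNAs) in the high-screen control (left) and the low-screen control (right), for the amplicon genes, 2 gene families, all gene-targeting sgRNAs and both control classes. The 22q11 curve runs beside the proteasome curve in both pools, whereas the 9q34 curve lies near the safe-targeting curve on the left and apart from it on the right.

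Gene medians were lower on 22q11 than on 9q34 in both pools. The 26 genes of 22q11 had median levels of -0.97 (high screen) and -1.04 (low screen), and 12 and 14 of them were called low. Of these 26 genes, 24 lay below the safe-targeting median in the high-screen control, as did 26 in the low-screen control, against 51.3% and 56.6% of all genes. The 6 genes of 9q34 had medians of -0.15 and -0.55, with 1 and 2 called low. At the level of sgRNAs, 47.9% (41.4 to 54.4) of the 22q11 sgRNAs and 28.3% (17.5 to 41.4) of the 60 sgRNAs of 9q34 were at or below -1 in the high-screen control. The corresponding shares in the low-screen control were 52.5% (46.0 to 59.0) and 43.3% (30.6 to 56.8). The intervals of both chromosomes overlapped in each pool, in the high-screen control only at the edge.

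Most 22q11 members on a list of genes with general roles in dividing cells were low. The list was drawn from general knowledge with earlier results of these data known. It includes LZTR1, which limits RAS proteins, and CRKL, a BCR-ABL1 substrate, so it is not a list of essential genes. It held 9 members, 8 on 22q11 and NUP214 on 9q34. Of these, 6 were called low in each pool, against 10.9% and 11.5% of all genes. Among proteasome genes 46.2% and 51.3% were. All 9 lay below the safe-targeting median in both pools, where 51.3% and 56.6% of all genes did. UBE2L3 (chromosome 22, 21903736 to 21978323, GRCh37), a ubiquitin-conjugating enzyme, was the lowest member in the high-screen control. Its 7 sgRNAs ranged from 0 to 3.99 CPM with a median of 0.576 in the high-screen control, and from 0 to 3.30 CPM with a median of 0.610 in the low-screen control. Its levels were -2.55 and -2.60, ranks 307 and 429 from the bottom of 20381 genes. All 7 lay below the safe-targeting median in the low-screen control and 6 of 7 did so in the other pool, and in the sorted library 6 of them had no read.

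TOP3B (22311397 to 22337210), a topoisomerase that also acts on RNA, followed with 8 sgRNAs from 0 to 3.72 CPM (median 0.709) in the high-screen control and from 0.610 to 4.01 CPM (median 1.04) in the low-screen control. Its levels of -2.33 and -1.96 placed it at ranks 397 and 739, and no sgRNA of it was missing from the low-screen control. PPIL2 (22020289 to 22054304), a cyclophilin of the spliceosome, was the lowest member in the low-screen control. Its 8 sgRNAs had a median of 1.46 CPM in the high-screen control (0 to 6.47) and 0.757 CPM in the low-screen control (0 to 4.37), with 3 sgRNAs missing from the latter. Its levels were -1.41 and -3.35, so the 2 pools differed widely for this gene.

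PI4KA (21061979 to 21213705), the kinase that makes phosphatidylinositol 4-phosphate at the plasma membrane, had 8 sgRNAs from 0.133 to 11 CPM (median 1.75) in the high-screen control and from 0 to 4.63 CPM (median 1.94) in the low-screen control. Its levels were nearly equal, -1.15 and -1.16. LZTR1 (21336558 to 21353321), an adaptor of a ubiquitin ligase that limits RAS proteins, had 9 sgRNAs with medians of 1.46 CPM (0 to 6.29) and 2.09 CPM (0 to 4.39). Its levels were -1.34 and -0.97, and 5 and 4 of its sgRNAs were at or below -1. CRKL (21271695 to 21308035), an adaptor protein and a main substrate of the BCR-ABL1 kinase, had 10 sgRNAs with medians of 2.04 CPM (0.399 to 5.89) and 1.56 CPM (0 to 8.69). Its levels were -0.89 and -1.37, ranks 2635 and 1386, and 5 and 7 of its sgRNAs were at or below -1. CRKL thus lay at the median of the 32 genes in the high-screen control and stood out from its neighbours in neither pool. SNAP29, a SNARE protein of membrane fusion, had levels of -1.15 and -1.09, and SDF2L1, a protein of the endoplasmic reticulum, -0.64 and -0.81.

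Some members that are chiefly active in other tissues were low. The list of 12 such members held 3 called low in the high-screen control (25%, against 10.9% of all genes and 24.9% of olfactory receptor genes). In the low-screen control it held 5 (41.7%, against 11.5% and 24.9%). Below the safe-targeting median lay 9 of the 12 in the first pool and all 12 in the second, against 70.7% and 75.8% of olfactory receptor genes. VPREB1 (22599192 to 22599927), part of the surrogate light chain of early B cells, had 8 sgRNAs from 0 to 5.54 CPM (median 0.598) in the high-screen control and from 0 to 7.06 CPM (median 1.95) in the low-screen control. Its levels were -2.50 and -1.07. RTDR1, listed as RSPH14 in the annotation and related to radial spoke proteins of cilia (23401593 to 23487208), had levels of -1.19 and -2.44, and all 9 of its sgRNAs were at or below -1 in the low-screen control, where they ranged from 0 to 1.16 CPM. ZNF280A, a zinc finger gene, had levels of -0.95 and -2.20, and its neighbour ZNF280B of -1.01 and -1.41. SERPIND1, which encodes the plasma protein heparin cofactor II and lies within PI4KA, had levels of -0.35 and -1.20.

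GGTLC2 (22987085 to 22990368) belongs to the gamma-glutamyltransferase family, whose near-identical copies may share sgRNA sites, so its values are uncertain. It was low in 1 pool alone: its 8 sgRNAs had a median of 1.04 CPM (0.488 to 5.01) in the high-screen control and 4.07 CPM (0 to 11.8) in the low-screen control, with levels of -1.79 and -0.05. The remaining members of the list of 12 had levels between -0.79 (AIFM3, a relative of apoptosis-inducing factor) and 0.36 (CCDC116) in the high-screen control. P2RX6, a subunit of ATP-gated channels, and SLC7A4, of a family of amino acid transporters, had levels of -0.68 and -0.75 there and -0.27 and -0.33 in the low-screen control.

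A further 11 members fell in neither list. Of these, PPM1F, a protein phosphatase, had levels of -1.16 and -1.01, and THAP7, a chromatin protein, of -1.16 and -0.71. PRAME, a cancer-testis antigen, had levels of -0.86 and -1.24, and GNAZ, the alpha subunit of a G protein, which lies within RTDR1, of -0.87 and -0.47. YPEL1 (-0.99 and -0.86), the deacetylase homologue YDJC (-0.75 and -0.63) and the transcriptional repressor HIC2 (-0.36 and -0.86) were below the safe-targeting median in both pools without reaching a low call.

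The 4 highest members in the high-screen control were FAM78A, CCDC116, LAMC3 and RAB36. FAM78A (chromosome 9, 134133463 to 134152752), a gene of unknown function, was the only member above the safe-targeting median in both pools. Its 10 sgRNAs ranged from 0.798 to 22.4 CPM (median 6.05) in the high-screen control and from 1.39 to 14.3 CPM (median 5.18) in the low-screen control, with levels of 0.62 and 0.29 and none missing. CCDC116 (chromosome 22, 21987005 to 21991618) had 10 sgRNAs with medians of 5.07 CPM (0 to 12.0) and 2.55 CPM (0 to 18.9) and levels of 0.36 and -0.74. LAMC3 (chromosome 9, 133884561 to 133969860), a laminin chain, had levels of 0.29 and -0.20, with medians of 4.81 CPM (0.0886 to 12.0) and 3.66 CPM (0 to 12.5). RAB36 (chromosome 22, 23487553 to 23507850), a small GTPase and the member nearest to BCR, had 9 sgRNAs with medians of 4.12 CPM (0.0443 to 7.49) and 1.42 CPM (0 to 4.12), and its levels of 0.09 and -1.5 lay on opposite sides of the limit.

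On 9q34, AIF1L (133971863 to 133998539), related to an actin-binding protein of macrophages, was low in both pools with levels of -1.33 and -1.97. QRFP (133768094 to 133772199), which encodes a neuropeptide and lies next to ABL1, had levels of -0.37 and -2.09: none of its 10 sgRNAs was missing from the high-screen control and 4 were missing from the low-screen control. NUP214 (134000960 to 134110050), a nuclear pore protein, had 10 sgRNAs with medians of 2.48 CPM (0.621 to 4.96) and 2.74 CPM (0 to 5.18) and levels of -0.63 and -0.61. FIBCD1, a membrane receptor, had levels of 0.07 and -0.49. FAM78A, the farthest of the 6 from ABL1, was the highest of them in both pools, and QRFP, the nearest, was the lowest in the low-screen control, with AIF1L the lowest in the other pool.

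Of the fusion partners, which are not members, BCR was low in both pools and ABL1 in the low-screen control alone. BCR, with 10 sgRNAs, had levels of -1.43 (high screen) and -3.89 (low screen), with 1 and 5 sgRNAs missing. ABL1, also with 10, had levels of -0.37 and -1.62. Both genes supply parts of the kinase on which K562 depends, so their levels cannot be set against those of the neighbours as a measure of cutting alone.

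The low levels on 22q11 were not particular to the 32 genes. Within 2 Mb of PI4KA on the centromeric side, 36 other genes had median levels of -0.89 (high screen) and -1.06 (low screen). Of these, 17 (47.2%, 30.4 to 64.5) and 20 (55.6%, 38.1 to 72.1) were called low, beside 12 and 14 of the 26 members. Inside the member span (21061979 to 23507850), 8 genes that are neither members nor immunoglobulin lambda (IGL) genes had medians of -1.33 and -1.66, with 6 and 7 called low. The 5 of them with at least 5 sgRNAs had medians of -1.05 and -1.21, with 3 and 4 called low. Among these, GGT2 (-1.05 and -1.03) is of the same family as GGTLC2, so its values are uncertain too. The 48 IGL genes in the span had medians of -1.10 and -1.64, but they form a multigene family whose sgRNAs may share sites and count as uncertain. Telomeric of the span, beyond BCR, levels were higher: 34 genes within 2 Mb had medians of 0.11 and -0.21, and 5 (14.7%, 4.95 to 31.1) and 9 (26.5%, 12.9 to 44.4) were called low. The interval of the second share lies above the 11.5% of all genes. Without IGL genes and genes of under 5 sgRNAs this share was 7 of 29 (24.1%, 10.3 to 43.5), an interval that includes 11.5%.

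A profile in steps of 1 Mb showed this change at BCR. In the 5 steps centromeric of BCR the median gene level lay between -0.81 and -1.10 in the high-screen control and between -1.0 and -1.57 in the low-screen control. Without IGL genes and genes of under 5 sgRNAs, it lay between -0.81 and -1.05 and between -0.94 and -1.27. The first step telomeric of BCR then had medians of -0.16 and -0.65. In the sixth step, 5 to 6 Mb away, 11 genes had medians of -0.30 and -0.47, with 2 and 0 called low. With all genes kept, the first step telomeric of BCR had medians of -0.14 and -0.54 over 21 genes. The second had 0.28 and -0.15 over 13 genes, and the third 0.66 and 0.50 over 5 genes. On 9q the genes within 2 Mb of the members had medians of -0.01 and -0.08 on the centromeric side (26 genes) and -0.17 and 0.14 on the telomeric side (22 genes). With 2 and 2 low calls on the first side and 0 and 0 on the second, the 9q34 surroundings did not share the low levels of 22q11.

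**Figure D3:**
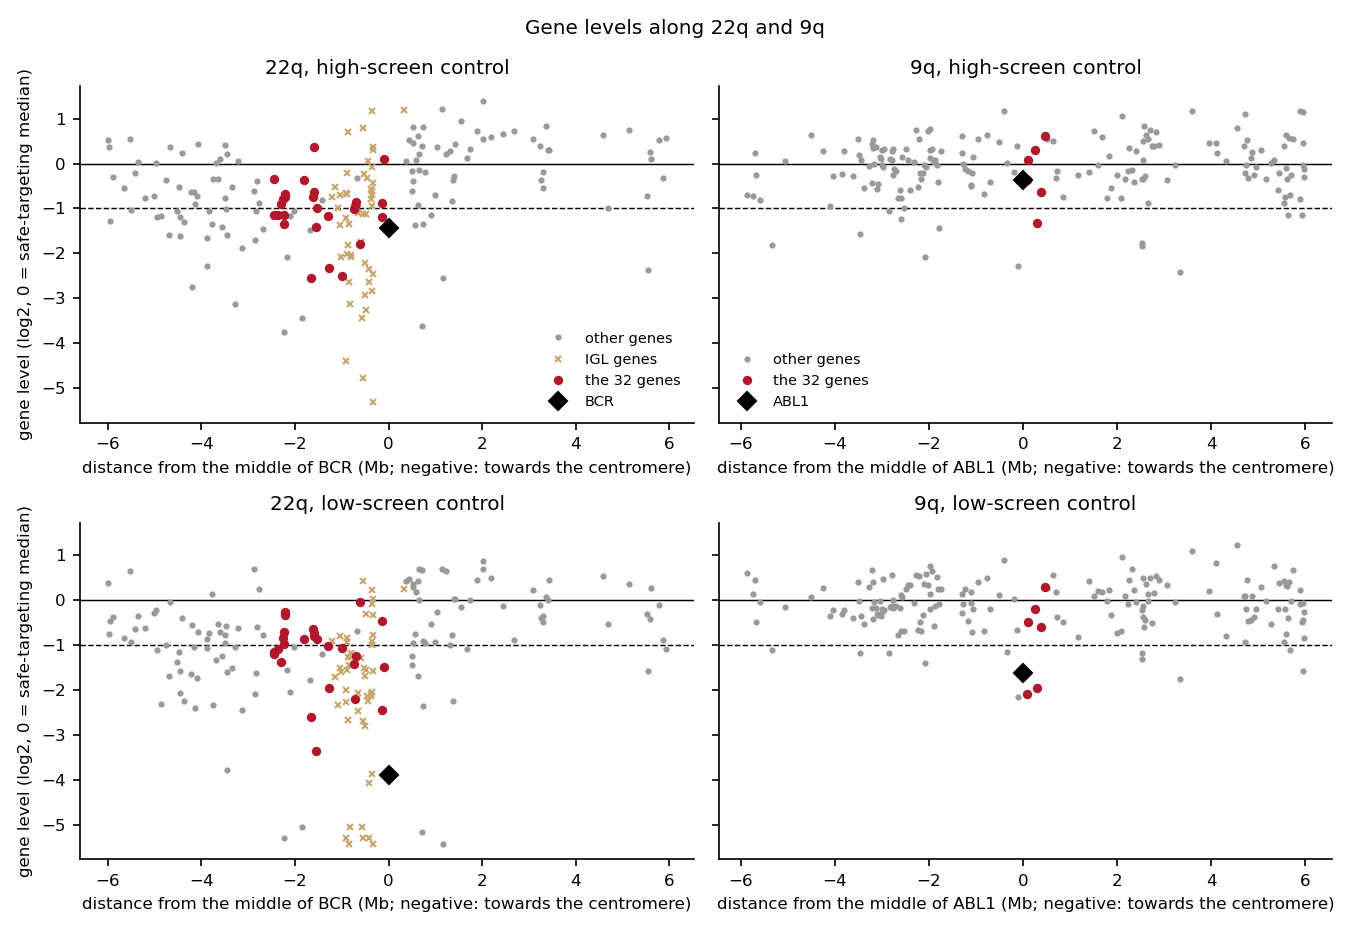
Gene level (log2, 0 = median of safe-targeting sgRNAs) against the distance in Mb from the middle of BCR (left) and ABL1 (right; negative values lie towards the centromere) in the high-screen control (top) and the low-screen control (bottom). On 22q the 26 members (red) and their unlisted neighbours are shifted down together up to BCR. Genes beyond BCR lie higher, with step medians from -0.54 upwards when all genes are kept. On 9q the genes scatter about 0 on both sides of ABL1, with AIF1L and QRFP among the few low ones.

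Both unsorted pools were then set against each other. As a log2 ratio of high-screen over low-screen control, centred on the safe-targeting sgRNAs and taken over the 288 member sgRNAs with at least 10 reads in either pool, the median of the 32 genes was 0.28, against 0.11 for all genes. At 2-fold, 6 members were higher in the high-screen control (LZTR1, PPIL2, RTDR1, RAB36, QRFP and FIBCD1), where 5.98% of all genes were. GGTLC2 alone was higher in the low-screen control by 2-fold, at -1.06, where 2.97% of all genes were. RTDR1 had the largest ratio, 1.5, followed by PPIL2 and RAB36 at 1.48 each, and LZTR1 and QRFP came next at 1.16 each. GNAZ and PPM1F came next to GGTLC2 at the low end, at -0.85 and -0.82. For LZTR1 the median ratio of 1.16 and the gene levels pointed in opposite directions, and with a minimum of 50 reads its ratio became -0.66, so this call is not stable.

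The study scored genes with redundant siRNA activity (RSA), which asks whether several sgRNAs of a gene stand near 1 end of the ranking of all sgRNAs. By this score 3 members met the limit used here: GGTLC2 at the low end, with 7 sgRNAs, and QRFP and AIF1L at the high end, with 4 sgRNAs each. Of all genes, 0.728% and 0.772% met it at these ends. For AIF1L the sgRNAs split, as 5 of 10 were at least 2-fold higher and 5 at least 2-fold lower in the high-screen control. The levels in the 2 pools were less closely correlated across member sgRNAs than across safe-targeting or olfactory receptor sgRNAs. Across the 298 member sgRNAs Pearson's r was 0.28 and Spearman's rho 0.35. The values were 0.46 and 0.52 across safe-targeting sgRNAs, and 0.57 and 0.62 across olfactory receptor sgRNAs. These correlations run across sgRNAs and share the depth of their libraries, and they serve as a description.

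**Figure D4:**
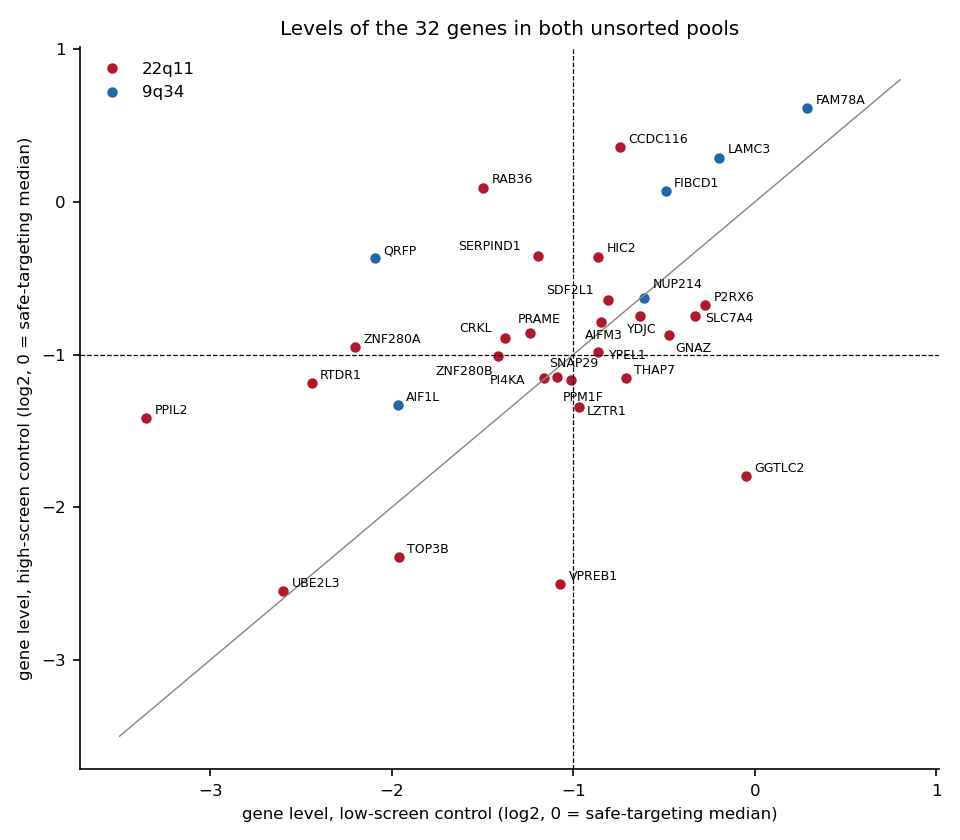
Level of each of the 32 genes (median over its sgRNAs, log2, 0 = median of safe-targeting sgRNAs) in the low-screen control (horizontal) and the high-screen control (vertical), with dashed lines at the limit for a low call and a grey line of equality. The lower left corner holds the 10 genes low in both pools; GGTLC2 and RAB36 lie far from equality on opposite sides.

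Member sgRNAs were missing more often than safe-targeting sgRNAs in both unsorted pools, with separate intervals only in the low-screen control. In the high-screen control 13 of 298 member sgRNAs (4.36%, 2.34 to 7.34) had no read. The share was 2.09% (1.76 to 2.47) for safe-targeting and 2.28% for all gene-targeting sgRNAs. Non-targeting (3.30%), proteasome (3.08%) and olfactory receptor sgRNAs (3.54%) lay inside the member interval. In the low-screen control, although it was sequenced more deeply, 51 member sgRNAs (17.1%, 13 to 21.9) had no read. The share was 5.36% (4.83 to 5.93) for safe-targeting, 6.79% for non-targeting, 9.52% for olfactory receptor and 6.60% for all gene-targeting sgRNAs. The share of proteasome sgRNAs missing from this pool was 17.9% (14.1 to 22.3), and its interval overlaps that of the members. A single member sgRNA was missing from both pools. This count includes only sgRNAs that had reads in the sorted library, so it says little about joint absence. Of the 247 member sgRNAs seen in the low-screen control, 2 had under 10 reads and the next smallest count was 46. Nearly every member sgRNA was thus either absent or well covered. This was not particular to the members: of 6645 safe-targeting sgRNAs, 356 were absent there and only 29 of those seen had under 10 reads. How many cells each sgRNA was drawn from is not given.

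The sorted cells held still fewer of these sgRNAs. In the HLA-B high sorted library 191 of 298 (64.1%, 58.4 to 69.5) had no read, against 49.6% (48.4 to 50.8) of safe-targeting sgRNAs, 56.9% (55.3 to 58.5) of olfactory receptor sgRNAs, 36.3% of non-targeting sgRNAs and 50.8% of all gene-targeting sgRNAs. The share of proteasome sgRNAs was 68.9% (63.8 to 73.7), an interval that overlaps that of the members. Per sgRNA, the mean was 1.98 CPM for members and 4.18 CPM for safe-targeting sgRNAs, or 47.3% of the latter. In the high-screen control the member mean was 67.6% and in the low-screen control 54.6% of the safe-targeting mean. The sort was a narrow sample, in which the median safe-targeting sgRNA had 1 read, and an sgRNA that was rare in the pool was more often without a read, as the next values show.

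Within bins of similar abundance before the sort the members and the safe-targeting sgRNAs lay closer together. Where the high-screen control had 10 to 49 reads of an sgRNA, 73.0% (63.7 to 81.0) of 111 member sgRNAs and 65.4% (62.9 to 67.7) of safe-targeting sgRNAs were missing from the sorted library. With 50 to 99 reads the shares were 64.9% (53.2 to 75.5, 77 sgRNAs) and 53.0% (50.6 to 55.3), and with 100 or more reads 38.2% (26.7 to 50.8, 68 sgRNAs) and 35.0% (33.2 to 36.7). The member share was the higher one in each of these bins. With 0 to 9 reads it was the lower one, at 81.0% (65.9 to 91.4, 42 sgRNAs) against 82.5% (78.3 to 86.1). Member and safe-targeting intervals overlapped in each, but with 50 to 99 reads the safe-targeting share lay just below the member interval. These overlaps do not show that the shares were equal.

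**Figure D5:**
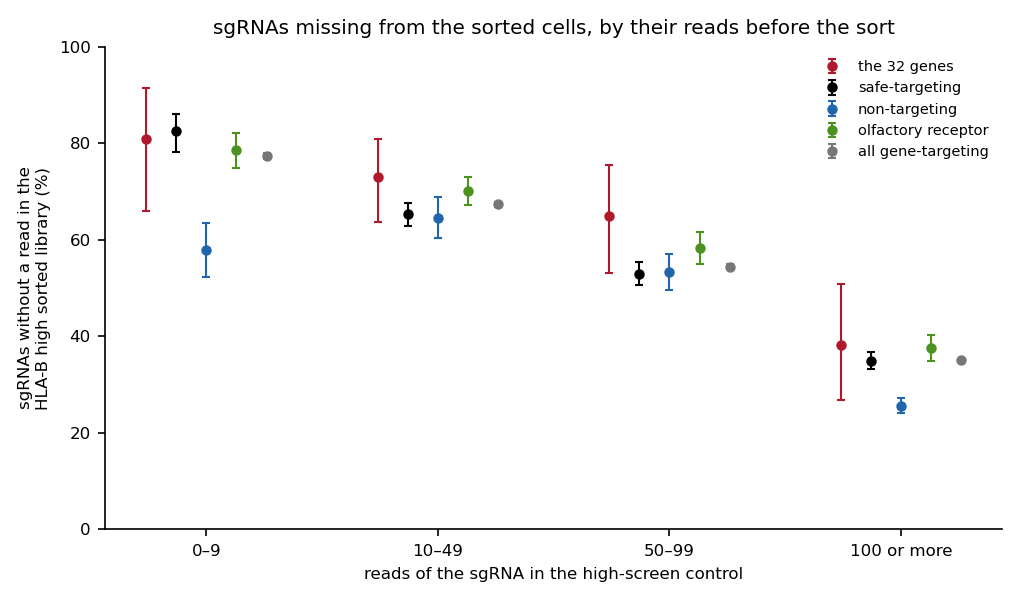
Share of sgRNAs (%) without a read in the HLA-B high sorted library, by the number of reads of the sgRNA in the high-screen control, for the 32 genes and 4 comparison classes; bars are exact binomial 95% intervals. The share falls from 81.0% to 38.2% for the 32 genes as reads before the sort increase, and their intervals overlap those of safe-targeting sgRNAs in every bin.

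Few members were high in the sort as genes. As a log2 ratio of sorted over high-screen control, centred on the safe-targeting sgRNAs, the median of the 32 genes was -0.65, against -0.35 for all genes. At 2-fold, 10 members (31.2%) were low, about the share of all genes (31.1%). High by 2-fold were 2 members (6.25%), against 22.4% of all genes, 16.5% of olfactory receptor genes and 15.4% of proteasome genes. By RSA none of the 32 met the limit at either end. As only 0.404% (low) and 0.532% (high) of all genes did, this says little about 32 genes. HIC2 (-1.86), NUP214 (-1.57) and GNAZ (-1.54) had the lowest ratios. All 10 sgRNAs against GNAZ, 9 of 10 against NUP214 and 7 of 8 against HIC2 had no read after the sort. PPIL2 (1.60), AIF1L (1.22) and GGTLC2 (0.36) had the highest ratios. These gene ratios are bounded from below, because an sgRNA without a sorted read takes a ratio that its count in the pool decides. For UBE2L3 the ratio was thus 0.24, although each of the 5 sgRNAs that entered was at least 2-fold lower after the sort before centring.

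Counted before centring, 17 of the 256 member sgRNAs that passed the minimum of 10 reads (6.64%, 3.92 to 10.4) were at least 2-fold more abundant after the sort, against 12.5% of all gene-targeting, 11.7% (10.9 to 12.5) of safe-targeting and 11.7% (10.6 to 12.9) of olfactory receptor sgRNAs. The member interval lay below that of the safe-targeting sgRNAs and overlapped that of proteasome sgRNAs (5.11%, 2.95 to 8.17). Set against the low-screen control, the member share was 8.16% (5.06 to 12.3). That interval overlapped the safe-targeting one (12.0%, 11.2 to 12.8). The 17 sgRNAs more abundant than in the high-screen control came from 14 genes. No gene had more than 2: PPIL2, GGTLC2 and SDF2L1 had 2 each. One sgRNA against PPIL2 reached 97.6 CPM in the sorted library from 6.47 CPM before, and one against LAMC3 reached 73.2 CPM from 7.31 CPM. The 3 most abundant member sgRNAs held 35.1% of all member reads in the sorted library, and 18 of the 32 genes had no sgRNA that was 2-fold more abundant after the sort.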

How the data were processed

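Pooled CRISPR knockout counts from 3 libraries of the K562 line were used, 1 library per group; the remaining sorted libraries were not analysed here. The authors deposited unnormalized counts of reads for each sgRNA. Their methods state that vector sequence was cut off the reads, that Bowtie2 mapped the remainder to the sgRNA library, and that reads matching more than 1 sgRNA were discarded. The processing notes of the submitters further list bcl2fastq and cutadapt; versions are not given in the sources used here. An sgRNA without reads is not listed in a library and was set to 0. Reads matched to no sgRNA (12.1% to 21.9%) were left out.

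Computation used Python 3.11.15, numpy 2.4.6, pandas 2.3.3, scipy 1.17.1 and matplotlib 3.10.9. Levels and ratios used log2(CPM + 0.1), centred on safe-targeting sgRNAs, with a minimum of 10 reads for ratios; a gene is the median of its sgRNAs. Calls are a 2-fold difference or, for RSA, a rank p below 0.001 with at least 4 sgRNAs. No count model was fitted, since each group has 1 library. Scripts were tested on simulated data. Shares carry exact Clopper-Pearson 95% intervals over numbers of sgRNAs or genes, treated as independent. These intervals do not measure error in read counts or variation between replicate libraries. Reads carry no molecular identifiers. Positions are from GENCODE release 44 lifted to GRCh37: 19754 of 20381 genes matched by identifier, 208 by symbol and 419 not at all. Of the members, ZNF280B was matched by symbol. The counts themselves involve no genome build.

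The members, gene lists and rules were chosen with earlier results of these data known. Named in full were the 4 lowest and 4 highest members in the high-screen control, the 3 lowest and 3 highest of each ratio, members meeting the RSA limit, and CRKL, LZTR1, PI4KA and NUP214. Alternatives covered the reference sgRNAs, pseudocount, filter, gene summary, call, control library and flank width. sgRNA sequences were not used here.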

Additional observations from a re-analysis of the deposited data

How the results depend on the processing

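With 1 library per group no result has a replicate check, and no library could be left out. No paired analysis was possible because each group holds 1 library, so that the groups share a single replicate number, which was given in accession order. The median of the 32 genes stayed below 0 in both unsorted pools, and below the median of all genes, under each of the 7 alternatives to the level, whereas the number of low calls depended on the reference.

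Centred on non-targeting sgRNAs, 27 members were low in each pool (medians -1.69 and -1.58), but so were 39.7% and 31.3% of all genes. Centred on olfactory receptor sgRNAs, 5 (median -0.49, 5.73% of all genes) and 9 (median -0.60, 6.56% of all genes) were low. At a factor of 1.5 it was 24 and 25 (21.9% and 23.3% of all genes). With means over sgRNAs the medians were -1.17 and -1.57, with 25 low in the low-screen control (22.9% of all genes). With sgRNAs listed in both pools alone, 9 were low there (8.03% of all genes; median -0.70). GGTLC2, TOP3B, UBE2L3 and VPREB1 were low in the high-screen control under all 7 alternatives, and AIF1L, QRFP, RAB36, RTDR1, TOP3B, UBE2L3 and ZNF280B in the low-screen control.

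For the ratio of the pools, low calls numbered 4 centred on non-targeting sgRNAs (6.51% of all genes), with 3 high (3.35%), 0 with a pseudocount of 0.5 CPM (1.71%) or means (3.08%), 3 with a minimum of 50 reads (3.84%) and 6 at a factor of 1.5 (10.8%). LZTR1 turned to -0.66 with a minimum of 50 reads.

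The sort depended most on the settings, because most member sgRNAs have no sorted read. Low and high calls numbered 29 and 0 centred on non-targeting sgRNAs (median -2.0; 66.7% and 7.65% of all genes), 32 and 0 without centring (median -3.75; 90.3% and 0.551%), 1 and 1 with a pseudocount of 0.5 CPM (11.4% and 10.5%), 21 and 5 with a minimum of 50 reads (median -1.5; 44.9% and 30.3%), and 18 and 1 for summed CPM (median -1.32; 33.5% and 13.5%). Low calls numbered 16 with a pseudocount of 0.02 CPM (42.1%), 5 with means (10.2%) and 17 at a factor of 1.5 (43.6%), and high calls 5 with no minimum (29.3%). PPIL2 turned to -1.5 without centring. AIF1L turned to -0.12 centred on non-targeting sgRNAs, -1.88 without centring, -0.78 for summed CPM and -0.76 over the low-screen control. RTDR1 turned to 0.30 over the low-screen control, and QRFP to 1.33 there and 0.0256 with means. Counting under 10 reads as absent gave 14.1% (high-screen control) and 75.5% (sorted library) of member sgRNAs. The causes were not tested. The flank medians moved by less than their spread over genes at 1 or 3 Mb and, in an alternative chosen after seeing the data, without IGL genes and genes of under 5 sgRNAs.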
